A study of Homo sapiens with 94 samples.

Results

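CIRBP and RBM3 are the 2 genes described here, out of 18780 genes in the sense tables of total RNA. They were chosen by symbol, because earlier results of these data had shown CIRBP RNA moving one way on the gene's own strand (sense) and the other way on the opposite strand (antisense). The changes that led to the choice are therefore given as a description, with the p-values as the authors deposited them and no test added. Both symbols have a row in all 16 sense and all 10 antisense tables of total RNA. Neither has a row in any of the 11 tables of nascent RNA (PRO-cap and PRO-seq), so their transcription as such was not analysed here.

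CIRBP (cold-inducible RNA-binding protein) and RBM3 (RNA-binding motif protein 3) are small proteins with a single RNA recognition motif followed by a glycine-rich tail. Both are made in larger amounts when mammalian cells are cooled mildly, while general protein synthesis slows, and both bind mRNA and influence its stability, translation and polyadenylation. CIRBP is also known as an mRNA induced by ultraviolet light in rodent cells and as a regulator of circadian clock transcripts, and RBM3 is known in neurons for its part in synapse maintenance after cooling.

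All cells were T-Rex Flp-in lines, whose integrated construct is driven by a Tet-controlled promoter and comes on with doxycycline, and total RNA was sequenced with a strand-specific kit from 3 libraries per group. HEK293 (human embryonic kidney) cells carrying TET-CD-GFP, the catalytic domain of the methylcytosine dioxygenase TET1 joined to GFP, were left untreated or given 5-aza-2'-deoxycytidine (Aza, 880 nM, 48 h), an inhibitor of DNA methyltransferases. The same line received 4-thio-2'-deoxythymidine (thio, 25 µM, 48 h), a light-sensitive thymidine analogue, or UVA (365 nm, 10 kJ/m2 every 8 h, 4 times), or both. These 4 treatments share 1 untreated group. Doxycycline (1 µg/mL, 48 h) was given to the TET-CD-GFP line and to a line with the mutated domain, TETMut-CD-GFP, each with its own untreated group. U2OS (osteosarcoma) cells with TET-CD-GFP received Aza at 55 nM or doxycycline and share an untreated group. In the last experiment Aza (880 nM) and doxycycline were given to a parental line named MeBP_TET_WT and to G16 and G37, which the labels name MeBP_TKO and which carry TET-CD-GFP. The labels conflict for the parental line, whose title says TET_WT and whose genotype field says TETMut-CD-GFP. The MeBP_TKO entry also stands on 1 of the parental libraries and is missing from 1 of G37. G16 and G37 are single named lines, so line and genotype cannot be told apart there.

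TET1 was higher with doxycycline in all 6 doxycycline comparisons of the authors' deposited tables, by 1.97 to 3.52 on log2. Of the markers set out for each cell type, 3 of 5 for HEK293 (LIN28B, PAX2 and NEFM, the last at a mean level of 10.9 or less) were higher in all HEK293 tables than in the U2OS table and 3 of 6 for U2OS (CD44, ANXA1 and THY1) were higher in U2OS. SALL4 and TWIST1 went against their labels, and the 4 markers of blood and liver cells reached a mean level of at most 56.7 normalized counts. The tables hold group comparisons and no value per library, so a group's spread is seen only through the standard error of its fold change. Nothing in the labels says that replicates came from separate cultures, so p-values measure only the spread between these libraries. In bulk RNA, fewer cells with a transcript and less of it per cell cannot be told apart.

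The promoters of both genes are printed because Aza inhibits DNA methyltransferases and TET-CD acts on methylated cytosine. In mammalian DNA methylated cytosine lies mainly at CG. Each window runs from 250 bases before to 50 bases after the RefSeq start, and capitals mark CG. The sequences are from RefSeq on GRCh38.p14, plus strand for both, at chr19:1269082-1269381 for CIRBP and chrX:48574234-48574533 for RBM3, whereas the deposited tables were made on hg19.
CIRBP: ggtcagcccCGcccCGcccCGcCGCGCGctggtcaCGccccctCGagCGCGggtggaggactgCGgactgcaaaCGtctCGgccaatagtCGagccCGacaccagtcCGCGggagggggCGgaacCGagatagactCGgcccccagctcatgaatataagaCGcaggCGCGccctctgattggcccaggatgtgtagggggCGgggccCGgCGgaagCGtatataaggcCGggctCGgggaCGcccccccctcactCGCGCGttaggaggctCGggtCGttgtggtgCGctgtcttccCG
RBM3: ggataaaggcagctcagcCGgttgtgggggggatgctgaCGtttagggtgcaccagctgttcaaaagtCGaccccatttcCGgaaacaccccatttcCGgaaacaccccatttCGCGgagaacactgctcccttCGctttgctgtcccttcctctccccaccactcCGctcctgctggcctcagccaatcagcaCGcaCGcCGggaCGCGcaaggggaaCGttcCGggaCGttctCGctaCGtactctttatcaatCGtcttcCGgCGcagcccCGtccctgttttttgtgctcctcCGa

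The CIRBP window held 37 CG dinucleotides and was 70.3% G and C, and the RBM3 window held 24 and was 59.3% G and C. The median over 35116 RefSeq promoter windows of that length was 14, and 11.3% of them held at least as many CG as CIRBP and 33.9% at least as many as RBM3. The motifs GGGCGG (GC box), CCAAT and TATAA were searched on both strands as exact letters. GGGCGG occurred 4 times in CIRBP and was not among the letters of the RBM3 window, and 44.95% of all windows held it. CCAAT occurred 2 times in CIRBP and 1 time in RBM3, against 34.6% of windows with at least 1. TATAA occurred 2 times in CIRBP and in no place of the RBM3 window, against 20.4%. These matches describe the letters and show no binding. The tables read here hold no methylation value for either window.

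CIRBP RNA was abundant on both strands in HEK293 and mainly on the sense strand in U2OS. In the Aza and light experiment the authors' deposited tables give a mean level over all libraries of 2981 normalized counts for CIRBP sense and 4045 for CIRBP antisense. In the HEK293 doxycycline experiment, in the authors' deposited tables, they were 3479 and 3948. In U2OS the authors' deposited tables give 2763 sense and 111 antisense. Antisense counts were thus 136% and 113% of sense counts in HEK293 and 4.01% in U2OS. Antisense above sense was uncommon: it was seen in 326 of 12259 genes (2.66%) with a sense level of at least 100 in the Aza and light experiment and in 427 of 13306 (3.21%) in U2OS. Over those genes the median antisense share was 0.455% of sense in HEK293 and 0.569% in U2OS.

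The HEK293 and U2OS tables were normalized separately, so their ratio of antisense to sense is compared in place of levels. This ratio for CIRBP was 33.8 times as high in HEK293 as in U2OS. The fold was larger for 26 of 11701 genes with a sense level of at least 100 and some antisense counts in both cell lines. The median of these 11701 genes was 1.35. On the separately scaled levels themselves, CIRBP sense differed by 1.08 times between the 2 cell lines and CIRBP antisense by 36.5 times. There is no replicate check of this difference, because each level is 1 mean over treated and untreated libraries. RefSeq lists CIRBP-AS1, also named C19orf23, as overlapping CIRBP, and which part of the antisense counts belongs to it was not tested.

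RBM3 was abundant on the sense strand only. The authors' deposited tables give 8667 normalized counts in the Aza and light experiment, 11039 in the HEK293 doxycycline experiment, 11927 in U2OS and 18953 in the experiment on MeBP lines. CIRBP sense was likewise highest in the separately normalized table of the MeBP lines, at 6718. RBM3 antisense stood at 26.8, 27.6 and 16.9 in the 3 experiments with antisense tables, 0.142% to 0.309% of sense. These shares lie below the median gene in all 3, and 61.8% of genes had a higher one in the Aza and light experiment. At this level the authors' deposited tables left RBM3 antisense without an adjusted p in 7 of 10 comparisons and called it in none. No change of it was thus detected, and its low level limits what could be.

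**Figure D1:**
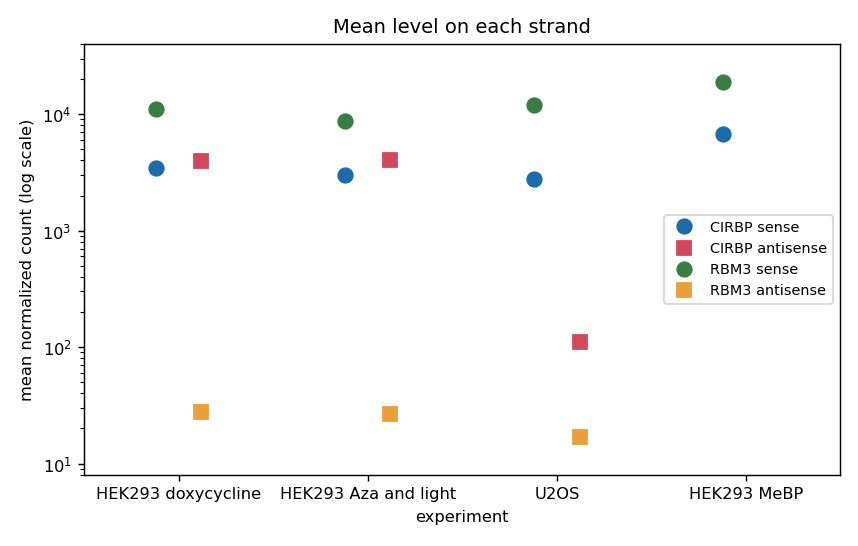
Mean normalized count over all libraries of an experiment (log scale) for CIRBP and RBM3, circles for sense and squares for antisense, from the authors' deposited tables. CIRBP antisense lies above CIRBP sense in both HEK293 experiments with antisense tables and at 111 in U2OS; levels are not divided by gene length, so the 2 genes cannot be ranked against each other.

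With Aza, CIRBP sense RNA was higher and its antisense RNA lower in HEK293, while RBM3 sense RNA was lower. In the authors' deposited table CIRBP sense rose by 0.23 ± 0.08 on log2 (SE, 3 against 3 libraries), which is 17.6%, with an adjusted p of 0.00791. CIRBP antisense fell by 0.76 ± 0.10 on log2 in the authors' deposited table, with an adjusted p of 9.75e-13, which leaves it 41% lower. The sense change was 1.00 above the antisense change on log2. Antisense RNA was lower in general: over genes at a mean level of 100 or more the median log2 change was -0.07 antisense and -0.01 sense. Centred on these medians, CIRBP was -0.69 antisense and 0.25 sense. Aza called 14.3% of sense genes (2363 of 16523; 7.17% higher, 7.14% lower) and 4.88% of antisense genes (179 of 3671; 4.06% lower) in those tables. Among 3548 genes tested on both strands, 28 were called on both and 12 of those in opposite directions, 10 of them, CIRBP included, with sense higher. Only 4 of the 3548 had a lower antisense fold change than CIRBP. The strand contrast itself led to the choice of CIRBP, so this rank is a description.

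RBM3 sense fell by 0.24 ± 0.10 on log2 with Aza in HEK293 (adjusted p = 0.0184, from the authors' deposited table), which is 15.5% lower. The 2 cold-inducible genes thus moved in opposite directions in the same libraries. RBM3 antisense had a deposited log2 change of 0.03 ± 0.12 and no adjusted p.

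Deposited fold changes in total RNA are shrunken toward 0, which leaves weak changes smaller than the libraries show. With the shrinkage undone, the Aza changes in HEK293 were 0.27 ± 0.08 for CIRBP sense, -0.78 ± 0.10 for CIRBP antisense and -0.30 ± 0.10 for RBM3 sense on log2 (value ± SE).

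The same sense changes were measured in the 3 MeBP lines, where the 880 nM dose was the same and libraries were separate from those above. CIRBP sense rose in all 3 in the authors' deposited tables: by 0.24 ± 0.07 on log2 in the parental line (adjusted p = 0.000747), 0.32 ± 0.07 in G16 (adjusted p = 6.38e-06) and 0.18 ± 0.07 in G37 (adjusted p = 0.00909). Aza called 22.7%, 23.6% and 24.7% of sense genes in these lines, with 10.4%, 11.6% and 12.1% higher, so a call is common there. RBM3 sense fell by 0.16 ± 0.08 in the parental line (adjusted p = 0.0457) and 0.19 ± 0.08 in G37 (adjusted p = 0.0176), from the authors' deposited tables, where 12.3% and 12.6% of genes were called lower. The call in the parental line is lost when p-values are adjusted over all rows, at an adjusted p of 0.0517. In G16 it was -0.09 ± 0.07 with an adjusted p of 0.224 and was not called. Antisense values for these lines were not analysed here.

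The 95% intervals of the differences between the lines all included 0. The largest difference for CIRBP was between the 2 MeBP_TKO lines, where the response of G16 was 0.13 ± 0.09 above that of G37 on log2 with the shrinkage undone (interval -0.05 to 0.31). On the same scale, the CIRBP response of G16 was 0.08 ± 0.09 above that of the parental line on log2, with a 95% interval of the difference from -0.11 to 0.26. For G37 the difference from the parental line was -0.06 ± 0.09, with an interval from -0.24 to 0.13. For RBM3 the G16 difference was 0.07 ± 0.11 (interval -0.14 to 0.28) and the G37 difference -0.03 ± 0.11 (interval -0.24 to 0.18). These intervals do not show that the lines respond alike, since they hold differences of about the size of the responses themselves. The parental line and the TET-CD-GFP line of the light experiment differed by -0.01 ± 0.10 for CIRBP and by 0.10 ± 0.12 for RBM3.

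In U2OS, where Aza was given at 55 nM, neither gene was called on either strand. CIRBP sense was -0.03 ± 0.04 on log2 (adjusted p = 0.712) and CIRBP antisense 0.03 ± 0.10 (adjusted p = 0.868), from the authors' deposited tables. RBM3 sense was -0.13 ± 0.08 (adjusted p = 0.141), below 0 as in the HEK293 lines. Aza called 23.7% of sense genes and 6.33% of antisense genes in U2OS. The dose and the cell line differ together from those of HEK293, so no difference between them was formed. The CIRBP antisense level was also far lower in U2OS, and with the shrinkage undone its change was 0.12 ± 0.19, smaller than its standard error.

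**Figure D2:**
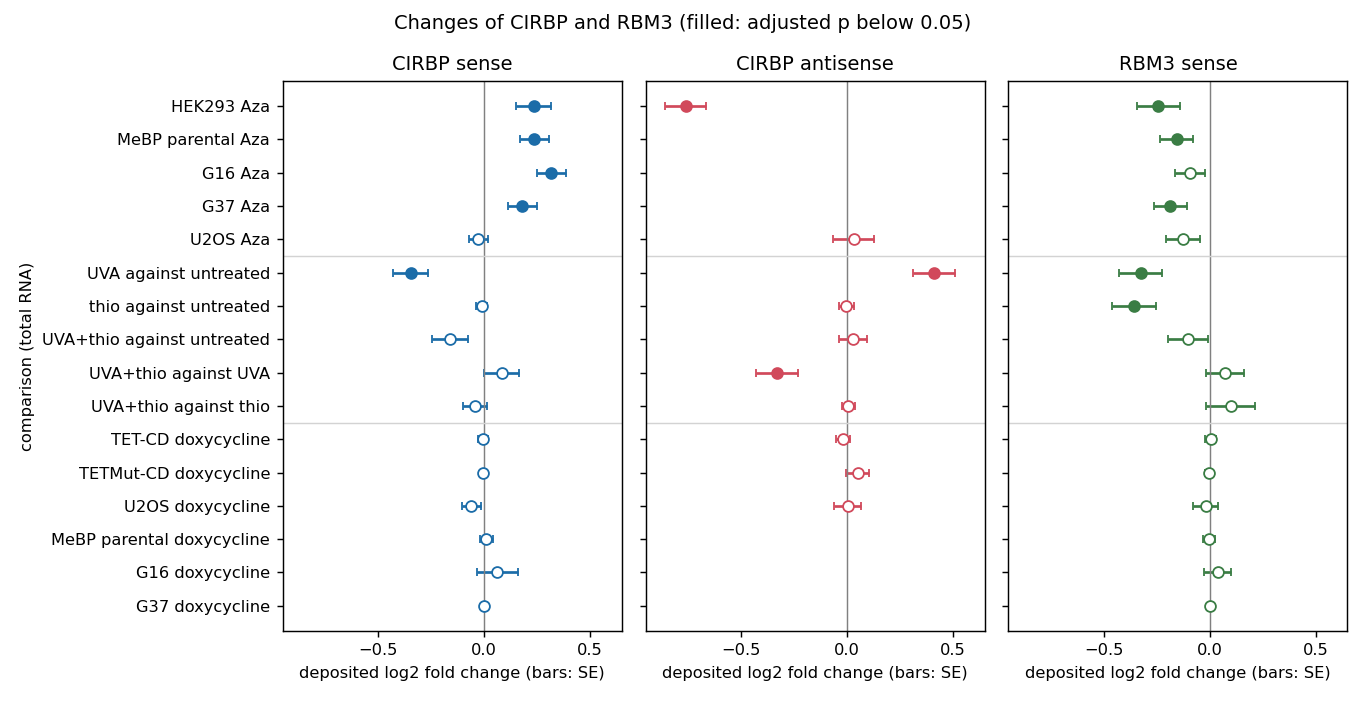
Deposited log2 fold change (points, x axis) with its standard error (bars) for CIRBP sense, CIRBP antisense and RBM3 sense in each total RNA comparison (y axis); filled points have an adjusted p below 0.05. CIRBP sense lies at 0.18 to 0.32 with Aza in the 4 HEK293 lines and at -0.35 with UVA, CIRBP antisense at -0.76 and 0.41 in the same 2 treatments of the TET-CD-GFP line, and all doxycycline points lie near 0.

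With UVA both cold-inducible genes were lower on the sense strand, and CIRBP antisense was higher. In the authors' deposited table CIRBP sense fell by 0.35 ± 0.08 on log2 (adjusted p = 0.000257), 21.3% lower. RBM3 sense fell by 0.33 ± 0.10 (adjusted p = 0.00331), 20.3% lower, in the authors' deposited table. CIRBP antisense rose by 0.41 ± 0.10 (adjusted p = 0.00175), 33.0% higher, in the authors' deposited table. UVA called 12.8% of sense genes (5.25% lower) and 0.926% of antisense genes (0.872% higher). Among 3145 genes tested on both strands, 5 were called on both strands and CIRBP was the 1 called in opposite directions, lower on sense and higher on antisense. This is the reverse of its Aza pattern, and both comparisons use the same untreated libraries. RBM3 antisense was 0.00 ± 0.07 with no adjusted p.

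**Figure D3:**
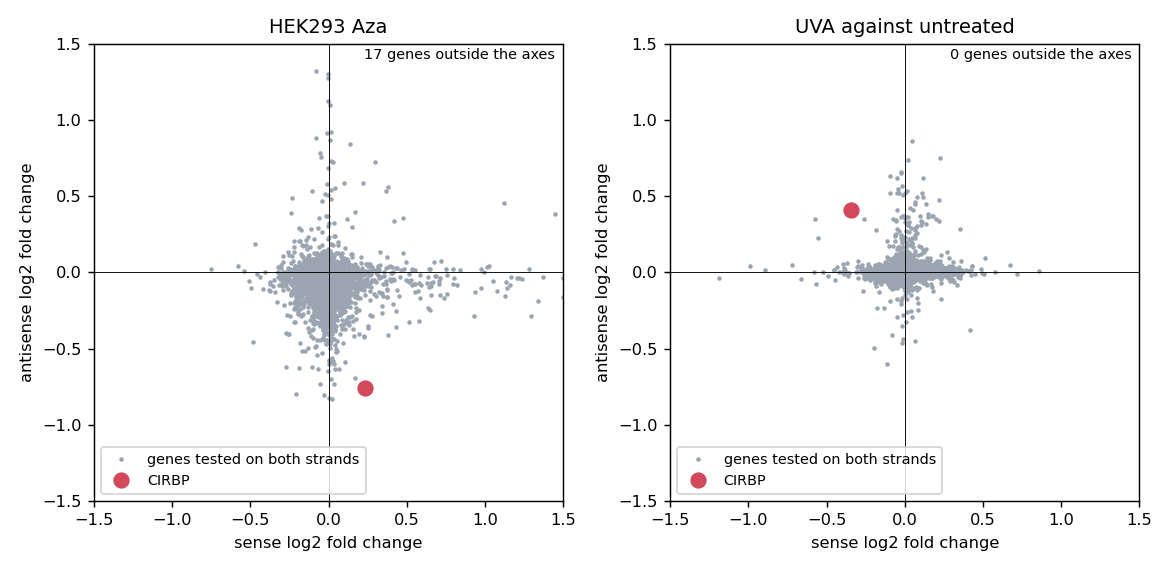
Deposited log2 fold change on the sense strand (x axis) against that on the antisense strand (y axis) for genes tested on both strands, with Aza (left, 17 genes outside the axes) and UVA (right, 0 outside). CIRBP, the large point, lies at 0.23 sense and -0.76 antisense with Aza and at -0.35 sense and 0.41 antisense with UVA.

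Thio alone moved RBM3 and few other genes. RBM3 sense fell by 0.36 ± 0.10 on log2 (adjusted p = 0.0469, from the authors' deposited table), 21.9% lower, and it was 1 of 6 genes called of 10849 tested (0.0553%, with 0.0461% lower). The other 5, named because they are so few, were HMGCS1 and IDI1, enzymes of cholesterol synthesis, the mitochondrial enzyme subunit OGDH, SYCP2L and RP11-637O19.3. RBM3 had the largest fold change of the 6 and shared the weakest adjusted p. The call is lost when p-values are adjusted over all rows without the authors' filter, at an adjusted p of 0.0675. CIRBP was -0.01 ± 0.03 sense (adjusted p = 0.791) and 0.00 ± 0.04 antisense (adjusted p = 0.999), from the authors' deposited tables, in which no antisense gene was called, 0% of 17769. With the shrinkage undone these were -0.11 ± 0.08 and -0.02 ± 0.09.

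When thio and UVA were given together, neither gene was called against untreated cells. In the authors' deposited tables CIRBP sense was -0.16 ± 0.09 on log2 (adjusted p = 0.0580), RBM3 sense -0.10 ± 0.10 (adjusted p = 0.212) and CIRBP antisense 0.03 ± 0.06 (adjusted p = 0.832). The background in this comparison was 9.52% of sense and 0.844% of antisense genes. Against UVA alone, CIRBP antisense fell by 0.33 ± 0.10 (adjusted p = 0.00714, from the authors' deposited table), where 2.56% of antisense genes were called and 2.12% called lower. In that comparison CIRBP sense was 0.08 ± 0.08 (adjusted p = 0.260) and RBM3 sense 0.07 ± 0.09 (adjusted p = 0.272), with 3.03% of sense genes called.

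The change with UVA can be set against the same change in cells that also had thio, because the libraries of these comparisons are separate. For RBM3 the UVA change with the shrinkage undone was -0.38 ± 0.10 on log2 without thio and 0.22 ± 0.10 with thio, a difference of 0.60 ± 0.14. For CIRBP antisense it was 0.45 ± 0.10 without and 0.07 ± 0.09 with thio, a difference of -0.39 ± 0.13. For CIRBP sense it was -0.38 ± 0.08 without and -0.11 ± 0.08 with thio, a difference of 0.27 ± 0.11. The UVA change was nearer to 0 with thio for CIRBP on both strands and changed sign for RBM3, and these differences are described and not tested. The changes of UVA with thio against thio were themselves not called, with an adjusted p of 0.232 for RBM3, 0.537 for CIRBP sense and 0.999 for CIRBP antisense in the authors' deposited tables (3.68% of sense and 0.276% of antisense genes called).

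**Figure D4:**
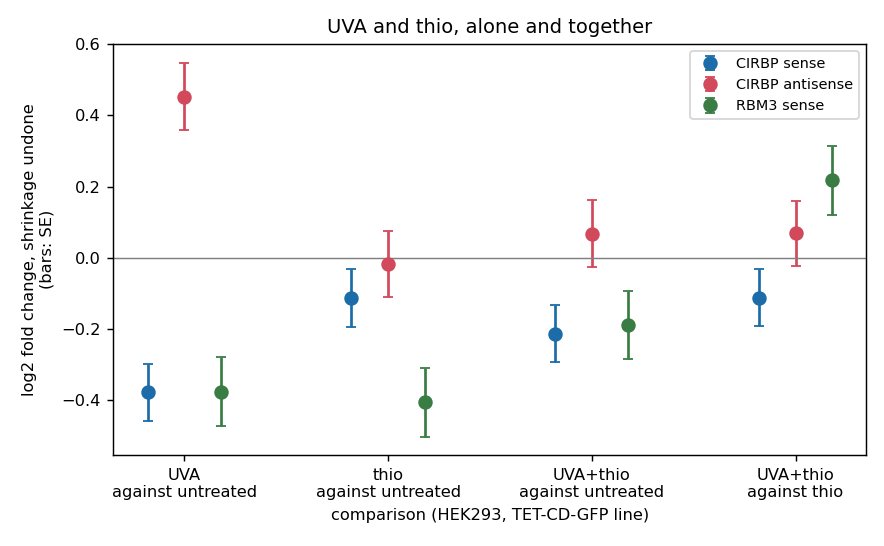
Log2 fold change with the shrinkage undone (points, y axis) and its standard error (bars) in 4 comparisons of the HEK293 TET-CD-GFP line. RBM3 sense lies at -0.38 with UVA, -0.41 with thio, -0.19 with both against untreated cells and 0.22 with both against thio; the first 3 comparisons share their untreated libraries.

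Doxycycline called neither gene in any of 6 comparisons. CIRBP sense lay between -0.06 and 0.06 on log2 and RBM3 sense between -0.02 and 0.04 in the authors' deposited tables, with lowest adjusted p-values of 0.272 and 0.309. CIRBP antisense lay between -0.02 and 0.05 in 3 comparisons, with a lowest adjusted p of 0.993. The share of sense genes called was 0.883% for TET-CD, 0.0276% for TETMut-CD, 12.2% in U2OS and 1.30%, 0.364% and 0.263% in the parental line, G16 and G37. Antisense shares were 0.303%, 0.0057% and 2.17% for TET-CD, TETMut-CD and U2OS. In G16, where both genes had a raw p below 0.05, the values with the shrinkage undone were 0.16 ± 0.07 for CIRBP and 0.17 ± 0.08 for RBM3. For G37 the shrinkage with doxycycline could not be undone.

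Over all comparisons CIRBP sense was thus called higher in 4 and lower in 1 of 16, and CIRBP antisense higher in 1 and lower in 2 of 10. RBM3 sense was called lower in 5 and higher in 0 of 16; the 5 became 3 with the adjustment over all rows and 1 at an adjusted p below 0.01. The 4 higher calls of CIRBP were the 4 Aza comparisons in HEK293 lines, while the 5 lower calls of RBM3 came from 3 Aza comparisons, UVA and thio. Aza in the TET-CD-GFP line, UVA and thio share 1 untreated group. Their RBM3 calls are therefore not independent of each other.

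Related and temperature-linked genes are given by their counts of calls, with HEK293 standing for the TET-CD-GFP line of the Aza and light experiment. The counts are to be read against the share of all sense genes called higher and lower, which was 7.17% and 7.14% with Aza in HEK293 and 7.51% and 5.25% with UVA. With 16 genes or fewer to a list, a difference of 1 or 2 genes from these shares is not a result about the list. All genes tested include weakly expressed ones, and their shares and medians were not matched to the lists by level. The 16 RNA-binding genes that follow had mean levels of 857 or more in the Aza and light experiment. Over genes at 100 or more there, the median log2 change with Aza was -0.01. Of 16 related RNA-binding proteins with RRM domains, 3 fell and 0 rose with Aza in HEK293, where 7.14% of all genes fell and 7.17% rose, with a median log2 change of -0.07 beside 0.00 over all genes tested. HNRNPAB fell by 0.28 ± 0.04 (adjusted p = 1.48e-08) and HNRNPA1, a splicing regulator, by 0.17 ± 0.07 (adjusted p = 0.0279), from the authors' deposited table. In the parental MeBP line 8 of these 16 fell, in G16 5, and in G37 5 with 1 that rose, where 12.3%, 12% and 12.6% of all genes were called lower. In U2OS 6 of 16 fell with Aza and 0 rose, where 12.9% of all genes were called lower and 10.8% higher, with HNRNPD at -0.21 ± 0.04 (adjusted p = 9.70e-06) and HNRNPA2B1 at -0.19 ± 0.04 (adjusted p = 9.73e-07), from the authors' deposited table. With UVA 2 of the 16 rose and 1 fell: RBM14 rose by 0.17 ± 0.07 (adjusted p = 0.0209) and HNRNPA1 fell by 0.18 ± 0.07 (adjusted p = 0.0228), from the authors' deposited table. With UVA and thio against untreated cells 5 of the 16 fell and 0 rose, where 4.15% of all genes were called lower and 5.37% higher. The median log2 change of the 16 there was -0.0025.

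Among 16 CLK and DYRK1A kinases and SR splicing proteins, a group through which temperature is known to act on splicing, 3 fell with Aza in HEK293, where 7.14% of all genes fell, with a median of -0.02 on log2. SRSF2 fell by 0.19 ± 0.07 (adjusted p = 0.00765) and SRSF1 by 0.15 ± 0.06 (adjusted p = 0.0259), from the authors' deposited table. With UVA 1 of the 16 rose, DYRK1A by 0.16 ± 0.07 (adjusted p = 0.0419), and 0 fell in the authors' deposited table. With Aza 5 of the 16 fell in the parental MeBP line, 1 in G16, 5 in G37 and 2 in U2OS, and 0 rose. Of all genes 12.3%, 12%, 12.6% and 12.9% were called lower there. In U2OS with doxycycline 2 of the 16 rose and 0 fell, beside 5.8% of all genes higher. With UVA and thio against untreated cells 2 fell and 0 rose, beside 4.15% of all genes lower. Of 6 cold shock domain genes tested with UVA, 0 were called. The medians of this list were -0.02 with Aza and 0.00 with UVA, beside 0.00 over all genes tested in both.

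The heat shock list, the opposite temperature arm, had 2 lower and 0 higher of 12 with Aza in HEK293 and medians of -0.01 with Aza and 0.06 with UVA. They were the mitochondrial chaperones HSPD1, which fell by 0.25 ± 0.07 (adjusted p = 0.00104), and HSPE1, which fell by 0.21 ± 0.07 (adjusted p = 0.00613), both from the authors' deposited table. With UVA 3 of 10 tested rose and 0 fell, where 7.51% of all genes rose, among them the chaperones HSPH1, by 0.33 ± 0.09 (adjusted p = 0.00146), and HSP90AA1, by 0.23 ± 0.10 (adjusted p = 0.0233), both from the authors' deposited table. The rise was not particular to UVA. In U2OS with doxycycline, where neither CIRBP nor RBM3 was called, 4 of 10 tested rose and 0 fell, beside 5.8% of all genes higher. In U2OS with Aza 2 of 10 rose and 2 fell, beside 10.8% higher and 12.9% lower. For the 16 circadian clock genes tested, the median was 0.00 with Aza and with UVA in HEK293. With Aza there 1 rose and 2 fell, near the 14.3% of all genes called. ARNTL, a core activator of the clock, rose by 0.24 ± 0.09 (adjusted p = 0.0163) and the repressor BHLHE41 fell by 0.38 ± 0.11 (adjusted p = 0.00105), from the authors' deposited table. With UVA 2 rose and 1 fell, near the 12.8% of all genes called, with PER2 at 0.24 ± 0.12 (adjusted p = 0.0318) and DBP at -0.27 ± 0.19 (adjusted p = 0.0491), from the authors' deposited table. None of the regulators SP1, NRF1, HIF1A and HNRNPH1 was called in HEK293 with Aza or with UVA. With Aza 1 of these 4 fell in U2OS, HNRNPH1 by 0.13 ± 0.03 (adjusted p = 3.55e-05, from the authors' deposited table), 1 fell in the parental MeBP line, 1 fell in G16, and 1 rose and 1 fell in G37. Of all genes 12.9%, 12.3%, 12% and 12.6% were called lower in these Aza comparisons, and 12.1% higher in G37. With UVA and thio against untreated cells 1 of the 4 regulators fell, where 4.15% of all genes were called lower. Thio called no gene of these lists among those tested.

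The genes next to CIRBP in RefSeq are MIDN and C19orf24 (FAM174C). MIDN, the gene of midnolin, a factor in protein turnover, fell with Aza in HEK293 by 0.29 ± 0.12 (adjusted p = 0.0128) and rose with UVA by 0.38 ± 0.11 (adjusted p = 0.00191), from the authors' deposited tables. C19orf24 fell with Aza by 0.27 ± 0.08 (adjusted p = 0.00208) and was 0.15 ± 0.08 with UVA (adjusted p = 0.0775), from the authors' deposited tables. The sense RNA of both neighbours thus had the sign of the CIRBP antisense change in these treatments, and the sign opposite to CIRBP sense. C19orf24 antisense was -0.40 ± 0.37 with Aza (adjusted p = 0.106) and 0.36 ± 0.45 with UVA (adjusted p = 0.196), as deposited by the authors. Its 2 strands thus had the same sign, with the antisense changes not called. MIDN antisense, at a mean level of 11.2, had no adjusted p in either treatment. Whether the strands and the neighbours are linked was not tested. RBM3 lies between TBC1D25 and WDR13, which were not called with Aza or UVA in HEK293 total RNA. TBC1D25 was -0.01 ± 0.06 (adjusted p = 0.946) and WDR13 0.04 ± 0.06 (adjusted p = 0.646) with Aza in the authors' deposited table. In U2OS TBC1D25 fell by 0.16 ± 0.07 with Aza (adjusted p = 0.0288, from the authors' deposited table).

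Among the genes whose 16 sense fold changes were most like those of CIRBP were PRKAB2 (Pearson r = 0.964), RAB13 (0.961), C18orf56 (0.959) and NYNRIN (0.958), out of 11652 genes at or above a mean level of 100 in every sense table. NYNRIN had deposited log2 changes of 0.37 with Aza in HEK293, 0.32, 0.37 and 0.37 in the 3 MeBP lines, 0.01 in U2OS and -0.33 with UVA in the authors' deposited tables. Those most like RBM3 were AKNAD1 (0.929), CLCC1 (0.927), RPS27A (0.893), ZFP30 (0.890) and ZNF121 (0.889). RPS27A, which encodes a ribosomal protein fused to ubiquitin, changed by -0.13 with Aza in HEK293, -0.21 with UVA and -0.12 with thio on log2. CIRBP and RBM3 had a correlation of 0.08 with each other, and 4536 genes were more like CIRBP than RBM3 was. The correlations describe patterns over comparisons that in part share untreated libraries.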

How the data were processed

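Total RNA was measured by strand-specific RNA-seq in 63 libraries, 3 per group, and nascent RNA in 18; the DNA samples were not used here. Per the submitters' processing notes, Trim Galore 0.4.3, STAR 2.4.2, hg19, R 3.5.1 and DESeq2 1.22.1 were used, with no stated role. Each deposited table compares groups and holds no value per library. The signal values the authors deposited (baseMean) are mean normalized counts over an experiment's libraries. The log2 values the authors deposited are fold changes and standard errors, in total RNA shrunken toward 0, as their p-values show. The p-value columns the authors deposited hold raw and adjusted values, blank where filtered. The score column the authors deposited in nascent tables divides each fold change by its standard error. Depth per library is unknown. Columns named as outlier marks, 12 in all, were not used here.

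A call is a deposited adjusted p below 0.05. Of 18850 rows, 70 symbols were repeated, of which the row with the largest mean was used. Shrinkage was undone by fitting the scale of a Cauchy prior to each table's p-values (Python 3.11.15, numpy, scipy), where the median difference in z was below 0.1. The code was tested on values simulated and shrunk under the same kind of prior. It gave back 100% of them within a fixed narrow margin at a setting like HEK293 Aza and 87.7% at a setting like thio. Such a test cannot show whether the authors' shrinkage had this form. Intervals of 95% assume normal errors and separate libraries. The members and gene lists were chosen with earlier results of these data known. Other genes were named by rule: the 2 called members of each list with the largest change, the 5 genes most alike to each member, neighbouring genes and TET1. Some genes that this rule names are not reported here.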

Additional observations from a re-analysis of the deposited data

How the results depend on the processing

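Deposited values were set against an adjusted p below 0.01, adjustment recomputed over all rows with a p, centring on the median of genes at a mean level of 100 or more, and undone shrinkage. For the 2 genes on both strands, 48 of 52 calls and non-calls were kept below 0.01 and 50 of 52 with recomputed adjustment. Centring and undone shrinkage change sizes and not the deposited p. Centring can turn a sign, so it bears on direction alone. Undone shrinkage keeps the sign of each value by its form, so the 50 values it gave bear on size and are no check of direction. The number of comparisons with RBM3 sense called lower, 5, became 1 below 0.01, where UVA was left, and 3 with recomputed adjustment, where thio and the parental MeBP line with Aza were lost (adjusted p = 0.0675 and 0.0517). The numbers for CIRBP on either strand stayed within 1.5 times. Centring turned the sign of 4 uncalled changes, which became 0.0046 (RBM3 antisense, U2OS with Aza), -0.00079 (RBM3 antisense, UVA with thio against thio), 0.0038 (CIRBP antisense, thio) and 0.00069 (RBM3 sense, parental MeBP line with doxycycline). The calls of list members were fewer below 0.01, by more than 1.5 times in 10 of 12 counts by list and direction, and a mean level of 100 or more moved 1 of 12. The 5 genes most like each member changed by at most 1 under either alternative. Keeping all copies of duplicated symbols moved no count of calls by over 1.5 times. No paired analysis was possible because the tables hold no value per library, and leaving out a replicate could not be done for the same reason. Nascent alternatives gave no value, since neither gene is in those tables. Depth limits RBM3 antisense, whose mean level is at most 27.6.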

Other observations

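The neighbours of RBM3 can be followed in nascent RNA of the TET-CD-GFP line of HEK293, where RBM3 itself has no row. In the authors' deposited table named Elongation, WDR13, a WD repeat gene, was -0.35 ± 0.12 on log2 with Aza (adjusted p = 0.0315) and -0.33 ± 0.12 with doxycycline (adjusted p = 0.0955). TBC1D25, a gene of a Rab GTPase-activating protein, was 0.03 ± 0.10 with Aza (adjusted p = 0.90) and -0.05 ± 0.10 with doxycycline (adjusted p = 0.90), again from that authors' deposited table. In the authors' deposited tables of start sites, TBC1D25 fell by 0.56 ± 0.15 with doxycycline at the site named Pr_TSS (adjusted p = 0.00421). At 1 of the 2 Pr_TSS sites of WDR13 the change was -0.49 ± 0.17 with Aza (adjusted p = 0.0456) and -0.49 ± 0.17 with doxycycline (adjusted p = 0.0487), and the other site was not called in the authors' deposited tables. The TBC1D25 site was -0.36 ± 0.15 with Aza (adjusted p = 0.0884). The site named Div_TSS at WDR13 fell by 0.35 ± 0.11 with Aza (adjusted p = 0.0155) in the authors' deposited tables. Neither gene was called with Aza or doxycycline in those named Initiation and Se_TSS. The share of all sites called in the nascent tables is not given here, so how common such calls are cannot be read from these values. Which of PRO-cap and PRO-seq each of these tables rests on is not given in the sources used here. The nascent libraries with Aza and with doxycycline share their untreated group.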
